A study of Mus musculus with 6 samples.

Results

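Libraries of sorted mouse lung endothelium that were rich in the epithelial transcript Sftpc were set against libraries that were poor in it. The sides were chosen by ranking the 6 libraries by their deposited Sftpc level in TPM, the unit of transcript abundance scaled by transcript length and library: the 3 highest, WT replicates 1 and 3 and KO replicate 1, formed the rich side, and the 3 lowest, WT replicate 2 and KO replicates 2 and 3, formed the poor side. Those 6 are all the libraries of the series. Because Sftpc chose the sides, every difference between rich and poor below describes these libraries; fits of this contrast are given as counts of genes, and no p supports a gene.

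The study profiled RNA from endothelial cells of mouse lung, obtained by fluorescence-activated sorting, with 3 libraries of genotype wt and 3 of genotype KO for Dnmt3a, an enzyme that sets new DNA methylation. RNA was taken up with a kit meant for few cells and amplified with the SMARTer Ultra Low kit before paired-end sequencing. The sources used here do not give the antibodies of the sort, the knockout allele, any Cre driver or the age of the mice, nor do they state that libraries came from separate animals, so p-values measure only the spread between these libraries, which may be technical. The rich side therefore holds 2 libraries labelled WT and 1 labelled KO, and the poor side 1 labelled WT and 2 labelled KO. Library totals ran from 28136194 to 39999172 estimated counts. Dnmt3a itself lay at 5.02 to 6.38 TPM in the libraries labelled WT and at 27.9 to 31.9 TPM in those labelled KO, higher and not lower under the KO label, so directions between genotypes are given below for libraries as labelled. Xist, the transcript of the inactive X chromosome, lay at 48.9 and 68.2 TPM in WT replicate 1 and KO replicate 1 and at no more than 0.18 TPM elsewhere, so that both female libraries fell on the rich side and all 3 poor libraries were male. Of the 4 male libraries only WT replicate 3 was rich, so sex moved with the sides in 5 of the 6 libraries.

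Sftpc encodes surfactant protein C, a small hydrophobic protein made by alveolar type 2 cells, the cuboidal epithelial cells that store surfactant in lamellar bodies and secrete it onto the air-facing surface. Endothelial cells line the capillaries just beneath, and the alveolar walls of the lung are thin, so dissociated lung holds both cell types closely mixed. Other epithelial cells of the lung are the flat type 1 cells that cover most of the gas-exchange surface, and the club and ciliated cells of the airways. In bulk RNA, fewer cells of a type and less RNA per cell cannot be told apart, and RNA taken up from broken cells counts like RNA of whole cells.

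Sftpc (ENSMUSG00000022097, mm10 chr14:70520949-70524081, minus strand) lay at 22177, 8898 and 8723 TPM in WT replicate 1, KO replicate 1 and WT replicate 3, and at 5310, 1574 and 497 TPM in KO replicate 2, KO replicate 3 and WT replicate 2. This order of libraries, rich before poor, is kept for all series of 6 values below. The levels formed a gradient and not 2 clusters: the highest library lay 44.6-fold above the lowest, but the libraries on either side of the divide, WT replicate 3 and KO replicate 2, differed only 1.64-fold. Within the rich side Sftpc spanned 2.54-fold, and within the poor side 10.7-fold. The estimated counts behind these levels were 255091, 86557, 124829, 55637, 16185 and 5097, so counting error was small beside the differences.

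**Figure D1:**
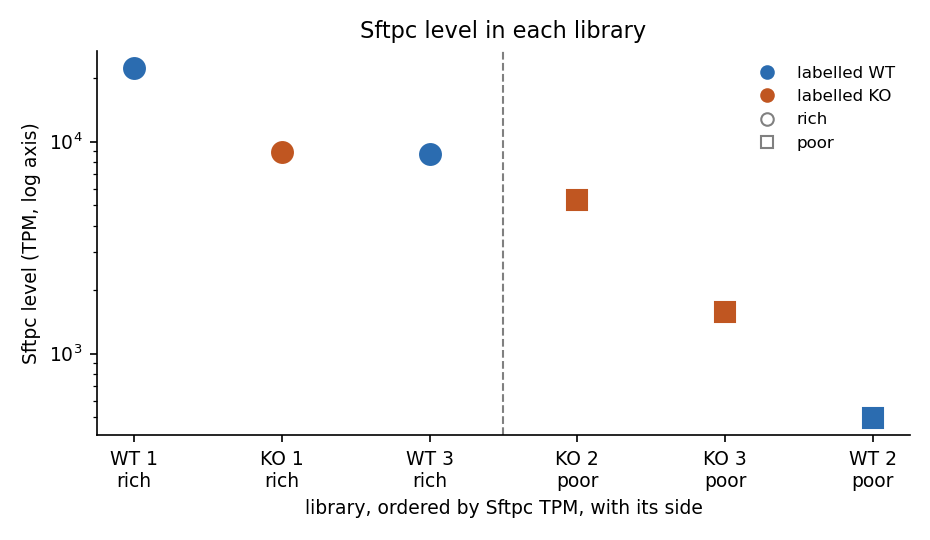
Sftpc level in TPM (log axis) in each of the 6 libraries, ordered by level. Colour gives the WT or KO label, circles the rich and squares the poor side, and the dashed line the divide between 8723 and 5310 TPM. The levels fall over the whole row, from 22177 to 497 TPM, and both labels are found on both sides.

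Genes from 1 source keep a fixed ratio to each other however much of that source a library holds. For each of 12032 genes with enough counts (a mean of at least 50 and at least 10 in every library), the log2 ratio to Sftpc was therefore taken in every library, and its SD over the 6 libraries used as a measure of likeness. A gene at a constant level would have an SD near that of Sftpc itself, 1.99; the median gene had 2.01, and the lowest 1% of genes lay below 1.21. The 20 genes closest to Sftpc had SDs from 0.10 to 0.53, and the next gene had 0.54. They were Alcam, Wfdc2, Napsa, Lamp3, Cxcl15, Hc, Sftpa1, Sftpb, Lyz2, Lyz1, Cldn3, Cbr2, Sftpd, Slc34a2, Scd1, Krt8, Muc1, Ces1d, BC051019 and Sfta2. Of these, 12 are on the list of alveolar type 2 genes used here, 3 on that of general epithelial genes (Wfdc2, Cldn3, Krt8), 1 on the club cell list (Cbr2), 1 on the macrophage list (Lyz2) and 3 on none (Alcam, Ces1d, BC051019). All 20 were higher in every rich than in every poor library, and 10 had the libraries in exactly the order of Sftpc. These genes were picked for this likeness, so their agreement is a description.

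Promoter sequence is shown for 4 of these genes, 2 surfactant genes that followed Sftpc and the neighbouring lysozyme genes Lyz2 and Lyz1, because the letters upstream show what a gene pair copied side by side still shares. The sequences are the 250 bases before each start, 5′ to 3′ along the gene, from RefSeq on GRCm38.p6. Capitals mark CTCAAG or CAAGTG on either strand (the reverse complement of CAAGTG reads CACTTG), letters of the kind bound by Nkx2-1, a transcription factor of lung epithelium; the 2 motifs share CAAG and can overlap.
Sftpb, chr6:72304360-72304609, plus strand: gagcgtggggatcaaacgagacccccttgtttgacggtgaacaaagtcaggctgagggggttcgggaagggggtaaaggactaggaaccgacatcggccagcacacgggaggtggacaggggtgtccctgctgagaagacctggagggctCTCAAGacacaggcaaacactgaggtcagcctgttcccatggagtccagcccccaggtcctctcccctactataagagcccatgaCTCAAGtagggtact
Sftpa1, chr14:41131538-41131787, plus strand: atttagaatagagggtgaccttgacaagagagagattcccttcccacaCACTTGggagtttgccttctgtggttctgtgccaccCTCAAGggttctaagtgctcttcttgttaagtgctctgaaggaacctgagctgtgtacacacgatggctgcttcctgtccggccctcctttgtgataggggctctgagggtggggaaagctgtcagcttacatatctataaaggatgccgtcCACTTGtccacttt
Lyz2, chr10:117282273-117282522, minus strand: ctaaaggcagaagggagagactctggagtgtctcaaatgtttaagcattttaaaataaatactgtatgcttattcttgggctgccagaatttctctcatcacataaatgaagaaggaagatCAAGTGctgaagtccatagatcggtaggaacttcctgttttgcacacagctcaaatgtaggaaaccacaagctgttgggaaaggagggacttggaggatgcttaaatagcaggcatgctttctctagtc
Lyz1, chr10:117292869-117293118, minus strand: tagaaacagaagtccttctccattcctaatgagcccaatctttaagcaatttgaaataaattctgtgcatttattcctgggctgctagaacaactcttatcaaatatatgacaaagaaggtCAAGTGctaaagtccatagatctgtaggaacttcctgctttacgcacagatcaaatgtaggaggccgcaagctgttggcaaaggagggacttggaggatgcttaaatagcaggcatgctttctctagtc
Sftpb held CTCAAG with its first base at -100 and -15 relative to the start, and Sftpa1 held it at -166 beside the CAAGTG complement at -202 and -14. Lyz2 and Lyz1 both held CAAGTG at -129. Compared position by position, 119 of the 129 bases from there to the start were the same. Over the whole window, those 129 included, 152 of 250 were the same. Either motif stood in the same window of 22.8% of 27025 genes (CTCAAG in 13.6%, CAAGTG in 11.6%). Of Sftpc and the 20 genes closest to it, 16 had a promoter in the table and 6 of those held a motif. A match is a run of letters and does not show binding.

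The surfactant proteins kept close to Sftpc. Sftpb, the other hydrophobic surfactant protein, lay at 544, 264 and 240 TPM in the rich libraries and at 154, 45.4 and 9.61 TPM in the poor ones. Sftpa1, a lectin of the surfactant film, lay at 286, 104 and 135 TPM against 89.3, 19.2 and 7.89 TPM. Sftpd, the related surfactant lectin, lay at 130, 61.5 and 68.5 TPM against 43.6, 7.87 and 3.22 TPM. In all 3 genes KO replicate 2 stood nearest to the rich libraries and WT replicate 2 was lowest, and no rich library overlapped a poor one. Per 1000 TPM of Sftpc, Sftpb lay at 24.5, 29.6, 27.5, 29.0, 28.8 and 19.3 TPM, so that a 56.6-fold range in level shrank to 1.53-fold.

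Some genes of surfactant processing, storage and lipid supply behaved alike. Napsa, the protease that trims surfactant precursors, lay at 99.1, 41.7 and 45.7 TPM against 25.7, 8.22 and 2.82 TPM, and Lamp3, a membrane protein of lamellar bodies, at 26.5, 10.0 and 10.0 TPM against 5.43, 1.27 and 0.43 TPM. Slc34a2, the phosphate transporter of type 2 cells, lay at 98.4, 37.2 and 34.0 TPM against 18.7, 5.09 and 1.24 TPM. Scd1, which desaturates fatty acids, lay at 31.9, 18.5 and 13.3 TPM against 9.68, 3.599 and 1.28 TPM. Each of these 4 separated the sides, with its highest level in WT replicate 1 and its lowest in WT replicate 2. Other genes of storage and lipid supply did not follow. Abca3, the lipid pump of lamellar bodies, lay at 43.1, 36.3 and 36.3 TPM against 37.7, 31.4 and 33.2 TPM. Lpcat1, which makes surfactant phosphatidylcholine, lay at 48.8, 57.4 and 33.5 TPM against 44.5, 39.9 and 33.3 TPM. Both were nearly level across libraries that differed 44.6-fold in Sftpc. Fasn, also on the type 2 list, separated the sides but spanned only 2.60-fold. It lay at 9.97, 7.06 and 8.35 TPM against 3.83, 4.04 and 4.85 TPM.

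Over the whole type 2 list, the summed level was 25022, 10003 and 9995 TPM in the rich libraries and 5942, 1870 and 656 TPM in the poor ones, which is 2.84%, 1.14% and 1.13% against 0.678%, 0.214% and 0.0747% of all TPM in the tables. Without Sftpc the sum was 2844, 1105 and 1272 TPM against 632, 296 and 159 TPM. Of the 33 members, 32 had enough counts to be fitted; Pgc, a protease precursor, stayed at or below 0.47 TPM. All 32 had a positive log2 difference, rich minus poor, with the label as covariate, and their median was 2.87, beside a median of 0.00088 over all 15202 genes fitted. In 27 of the 32 every rich library lay above every poor one, which held for 990 of the 15202 genes (6.51%), while the reverse held for 694 (4.57%). A member that passed the filter on low counts only through the rich side had to differ, and the list was drawn up with Sftpc known to vary, so nothing is read from these counts. The same limits hold for such counts of the other epithelial lists below.

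Across all genes the quasi-likelihood test of edgeR called 0 of 15202 genes (0.0%) between the sides at an adjusted p under 0.05, Sftpc included (log2 difference 3.15, SE 1.14), with 829 genes at an unadjusted p under 0.05. With the Sftpc level as a continuous term in place of the 2 sides, 62 genes (0.408%) passed, all rising with Sftpc, and 36 of them are on 1 of the 5 epithelial lists, 20 on that of type 2 cells. Sftpc itself, the term of the fit, is counted in each of these 3 numbers. DESeq2 called 215 genes higher in the rich libraries (1.14% of 18827) and 30 lower (0.159%), and 13 of the 30 were at 0 counts in every library but WT replicate 2. These counts come from the contrast that Sftpc defined and are given as its description.

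**Figure D2:**
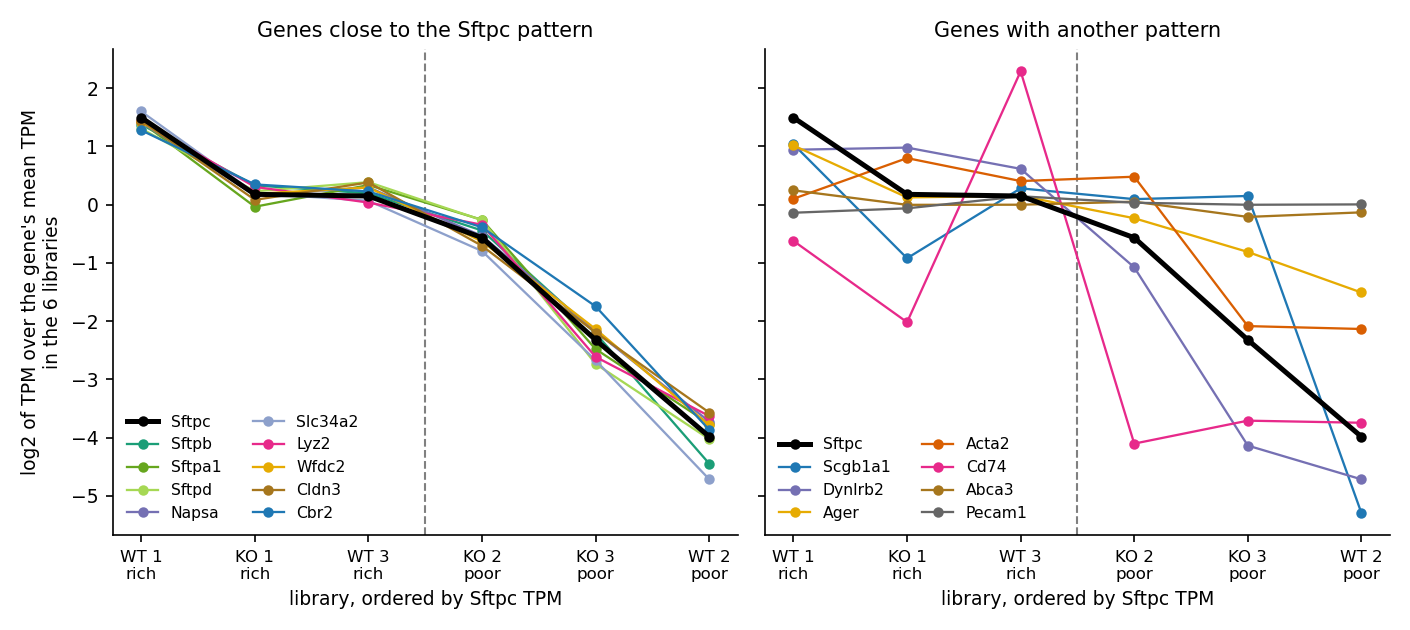
Level of each gene relative to its own mean TPM over the 6 libraries (log2), with libraries in the order of Sftpc. Left, Sftpc (thick line) and 9 of the genes closest to it, including Lyz2 at 829 to 24.8 TPM; right, genes that depart from it, such as Abca3, Scgb1a1, Acta2 and Cd74. Lines join the values of 1 gene and do not stand for an ordered series.

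Lyz2 is widely used as a macrophage and neutrophil gene. It lay at 829, 379 and 314 TPM in the rich libraries and at 241, 50.1 and 24.8 TPM in the poor ones, with an SD of 0.24 for its log2 ratio to Sftpc. The other 21 macrophage and monocyte genes together summed to 26.0, 18.4 and 22.4 TPM against 14.1, 17.6 and 20.5 TPM. No such gene other than Lyz2 reached 12 TPM in any library, and Marco, Itgax, Csf1r and C1qc were listed at 0 in all 6. Without Lyz2 the macrophage sum therefore overlapped between the sides. Of its 10 members fitted, 3 separated the sides (6.51% of all genes did): Lyz2, Plet1 at 9.12, 2.24 and 5.16 TPM against 1.15, 0.26 and 1.13 TPM, and the protease gene Ctss at no more than 1.91 TPM. Chil3, a chitinase-like protein, had 86 counts in WT replicate 1, 18 in WT replicate 3 and 0 elsewhere. Lyz1, the neighbour of Lyz2, lay at 240, 117 and 75.8 TPM against 43.8, 17.9 and 5.14 TPM. The coding sequences of Lyz2 and Lyz1 are close, so reads can be shared between them and the level of either is uncertain.

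Many, but not all, of the genes shared by many epithelia also followed Sftpc. The median SD of the log2 ratio over the list was 0.90, beside 0.59 for the type 2 list. Wfdc2, a secreted protease inhibitor, lay at 227, 96.0 and 104 TPM against 54.5, 19.2 and 6.11 TPM, and its ratio to Sftpc had the second lowest SD of all genes, 0.15. Alcam, an adhesion molecule with the lowest SD (0.10), was scarce, at 7.36, 2.83 and 2.71 TPM against 1.65, 0.56 and 0.12 TPM, and rested on 11 counts in WT replicate 2. Krt8, an intermediate filament protein of simple epithelia, lay at 44.1, 12.6 and 19.6 TPM against 6.88, 3.47 and 1.11 TPM, and Cdh1, the epithelial cadherin, at 15.2, 8.66 and 8.90 TPM against 2.30, 1.31 and 0.96 TPM. Both had their lowest level in WT replicate 2, as Sftpc did. Of the 29 general epithelial genes fitted, 28 had a positive difference (median 2.08), as had 7630 of the 15202 genes fitted. The sides were separated by 17 of the 29, against 6.51% of all genes. Scarce members that passed the low-count filter only through the rich side had to differ, so nothing is read from these counts. Among the members that did not separate the sides were Cd24a, at 139 to 208 TPM in all libraries, and Nkx2-1, at 2.45 to 5.36 TPM. Others were Epcam, at 2.24, 0.79 and 0.64 TPM against 0.53, 0.98 and 0.03 TPM, and Grhl2, at 0.95 to 1.52 TPM.

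Airway genes divided into ones that followed the sides and ones that did not. Of 20 ciliated cell genes, 17 were higher in every rich than in every poor library, against 6.51% of all genes (median difference 3.11). Many had few counts in the poor libraries. A member that passed the low-count filter only through the rich side had to differ, so nothing is read from this count. Dynlrb2, a dynein light chain, lay at 41.2, 42.3 and 32.8 TPM against 10.2, 1.22 and 0.81 TPM, and Tmem212 at 29.4, 20.8 and 16.5 TPM against 4.81, 0.81 and 0.75 TPM. Neither could be ranked against Sftpc, with under 10 counts in KO replicate 3 and WT replicate 2; over the 7 ciliated genes that could, the median SD of the ratio to Sftpc was 1.07. Tppp3, a tubulin-binding protein, was high in all libraries (186 to 560 TPM) and was highest in KO replicate 2; without it the ciliated sum was 178, 138 and 108 TPM against 39.7, 15.1 and 24.8 TPM.

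The club cell genes were led by Scgb1a1 (secretoglobin, the main secreted protein of club cells), which lay at 4354, 1122 and 2578 TPM in the rich libraries and at 2267, 2354 and 54.1 TPM in the poor ones. It was low in WT replicate 2 alone, and KO replicates 2 and 3 lay above KO replicate 1, so the sides overlapped. Cyp2f2, a cytochrome P450 of club cells, lay at 127, 77.4 and 95.4 TPM against 67.6, 49.5 and 4.31 TPM, low in the same library. Cbr2, a carbonyl reductase on the same list, followed Sftpc instead, at 708, 372 and 342 TPM against 223, 87.1 and 20.05 TPM. Of the 19 club and secretory genes fitted, 18 had a positive difference (median 2.39), as had 7630 of the 15202 genes fitted. The sides were separated by 5 of the 19, against 6.51% of all genes. The difference of Scgb1a1, 2.39 (SE 2.48), ranged from -1.12 to 6.06 over 21 alternative fits and was negative in 1, the fit without WT replicate 2.

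Several secreted airway proteins were found in 2 of the 3 rich libraries. Bpifa1, an antimicrobial protein of the upper airway, had 1638 counts in WT replicate 1 and 668 in WT replicate 3 and 0 in the other 4 libraries, KO replicate 1 included. Bpifb1, of the same family, lay at 65.2 and 25.4 TPM in those libraries and at no more than 0.20 TPM elsewhere. Reg3g, an antibacterial lectin, lay at 28.5 and 11.2 TPM in both and at no more than 0.31 TPM elsewhere. All 3 were thus present in the rich libraries labelled WT and at or near 0 in the rich library labelled KO, at an Sftpc level in KO replicate 1 (8898 TPM) like that of WT replicate 3 (8723 TPM). With 1 KO library on the rich side, that library and the label cannot be told apart here.

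Type 1 cell genes had a smaller median difference, 0.48. Ager, the receptor that marks type 1 cells, lay at 168, 90.5 and 92.3 TPM against 70.7, 47.3 and 29.2 TPM, a range of 5.76-fold. Sec14l3, a lipid-binding protein, spanned a wider range, 106, 86.1 and 62.2 TPM against 22.3, 9.87 and 5.27 TPM. Of 22 type 1 genes, 6 separated the sides upward, against 6.51% of all genes, and 1, Lmo7, downward, against 4.57%. All other members overlapped between the sides. Among them Aqp5 lay at 1.56, 1.75 and 0.74 TPM against 1.42, 1.66 and 0.46 TPM, and Pdpn at no more than 0.52 TPM. Cav1, Hopx and Gprc5a, which endothelial cells can also express, were also among them.

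**Figure D3:**
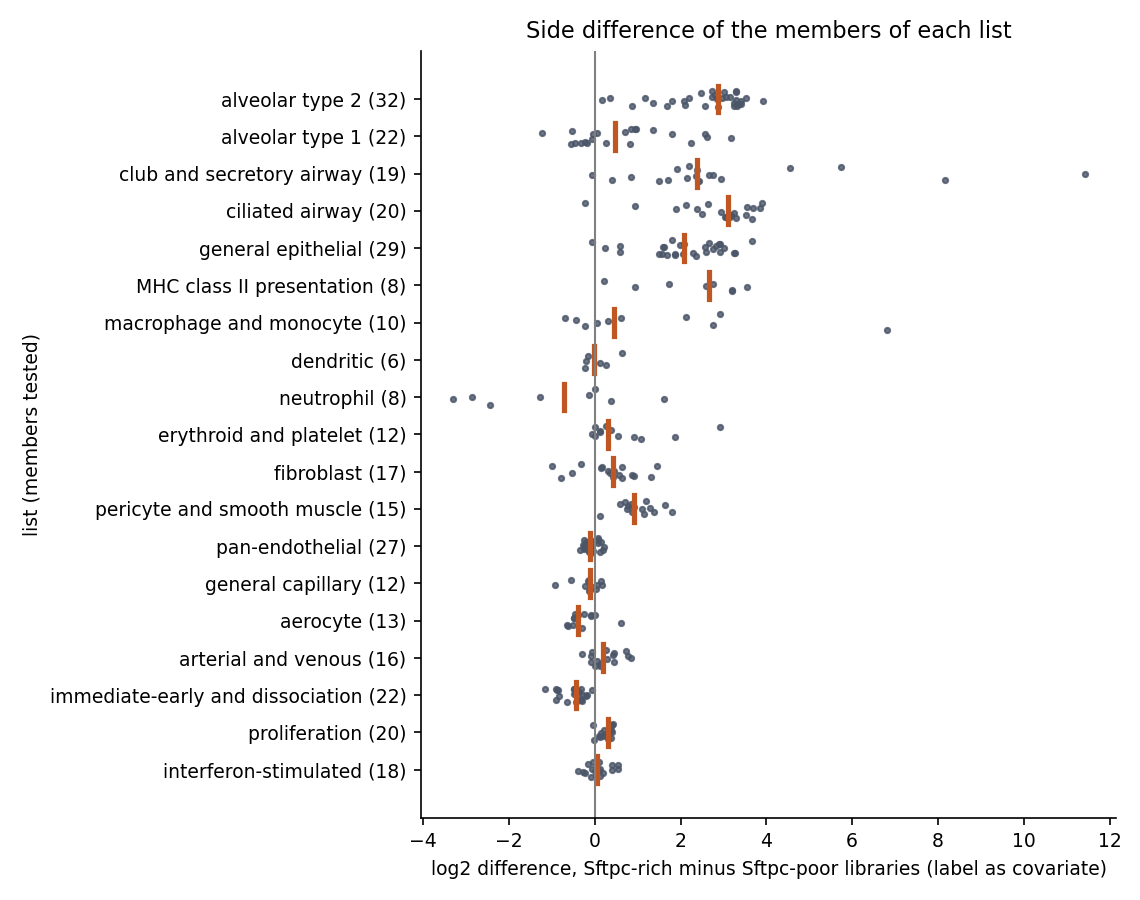
Log2 difference, rich minus poor, of every member fitted in 19 of the 24 lists (grey points, placed at random heights within a row), with the median as an orange bar and the number of members in brackets. Medians lie at 2.08 to 3.11 for the type 2, club, ciliated and general epithelial lists and at 2.67 for MHC class II genes. They lie at -0.10 for pan-endothelial genes and at -0.43 for immediate-early genes. Bpifa1, Kcnk2 and Chil3 have 0 counts on the whole poor side, so their points, far to the right, depend on the prior count of the fit.

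Genes on some other lists were also unevenly spread, each list in its own order of libraries. Genes of antigen presentation by MHC class II separated the sides in sum, at 601, 243 and 4259 TPM against 61.05, 72.1 and 127 TPM. All 8 members fitted had a positive difference (median 2.67), as had 7630 of the 15202 genes fitted. The sides were separated by 4 of the 8, against 6.51% of all genes. H2-Ab1 was among those that overlapped, at 44.7 TPM in KO replicate 1 and 51.2 TPM in WT replicate 2. Which cells the class II transcripts came from, epithelial cells included, was not tested. Cd74, the invariant chain, lay at 386, 147 and 2905 TPM against 34.5, 45.4 and 44.3 TPM, so WT replicate 3 held most of it, although 2 libraries had more Sftpc; the 2 other rich libraries also lay above every poor one. The sum of pericyte and smooth muscle genes was low in the 2 libraries poorest in Sftpc only. It was 354, 578 and 473 TPM in the rich libraries and 486, 131 and 126 TPM in the poor ones. Acta2, smooth muscle actin, lay at 148, 240 and 183 TPM against 193, 32.5 and 31.4 TPM. Some members departed from this order. Rgs5 lay at 5.02 TPM in WT replicate 1 and 5.95 TPM in KO replicate 3. Trpc6 lay at 1.54 TPM in WT replicate 1 and 2.25 TPM in WT replicate 2. All 15 genes of the list had a positive difference (median 0.92), as had 7630 of the 15202 genes fitted. The sides were separated by 2 of the 15, Cox4i2 and Postn, against 6.51% of all genes. Mesothelial genes were scarce, and their sum separated the sides by a small margin (11.1, 13.5 and 10.9 TPM against 10.6, 2.67 and 3.59 TPM).

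Haemoglobin genes did not follow. The erythroid and platelet sum, most of it haemoglobin, was 4045, 11877 and 9014 TPM against 2990, 5813 and 16801 TPM, highest in the library with least Sftpc. The scarce platelet genes on the same list did separate the sides in 3 cases, Pf4, Ppbp and Gp9 (3 of 12 members, against 6.51% of all genes): Pf4, a platelet chemokine, lay at 4.84, 7.24 and 10.98 TPM against 3.91, 0.96 and 1.76 TPM. Fibroblast genes summed to 153, 260 and 151 TPM against 266, 158 and 104 TPM and overlapped. Neutrophil genes stayed at or below 41.7 TPM in sum, dendritic genes at or below 128 TPM, B cell genes at or below 15.5 TPM, T and NK cell genes at or below 14.8 TPM and basal and neuroendocrine genes at or below 6.42 TPM, and none of these sums separated the sides.

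Endothelial genes themselves were close to level. The pan-endothelial sum lay at 22958, 23321 and 26944 TPM in the rich libraries and at 26460, 26957 and 26543 TPM in the poor ones. Of the 27 genes, 7 had a positive and 20 a negative difference (median -0.10), beside 7630 and 7572 of the 15202 genes fitted. In WT replicate 1 the type 2 sum (25022 TPM) was thus larger than the pan-endothelial sum, and Sftpc alone lay far above Pecam1, the endothelial adhesion molecule (999 to 1215 TPM in all libraries). Genes of the general capillary cell had a median of -0.12 over 12 genes and arterial and venous genes one of 0.20 over 16. Aerocyte genes, of the capillary cell that faces the alveolar air, had a negative difference in 12 of 13 (median -0.40). Of all 15202 genes fitted, 7572 had a negative difference. In 3 of the 13 aerocyte genes every poor library lay above every rich one, against 4.57% of all genes. Among them Ednrb, an endothelin receptor, lay at 384, 323 and 362 TPM against 681, 459 and 431 TPM, and Prx at 413, 371 and 429 TPM against 597, 523 and 535 TPM; KO replicate 2 was highest in both, and the sides did not overlap in either.

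Immediate-early genes, switched on within minutes by stress or growth signals, including during tissue dissociation, went the other way. All 22 had a negative difference (median -0.43), as had 7572 of the 15202 genes fitted. The sum of the 22 was 2954, 4100 and 3242 TPM in the rich libraries against 5117, 5134 and 4188 TPM in the poor ones. In 9 of the 22 every poor library lay above every rich one, against 4.57% of all genes. Atf3, a stress-response factor, lay at 29.5, 61.9 and 27.2 TPM against 88.1, 105 and 60.97 TPM; KO replicate 1 and WT replicate 2 met on the TPM scale, while the sides did not overlap in TMM-scaled counts. Socs3, a feedback inhibitor of cytokine signalling, lay at 26.1, 43.5 and 20.3 TPM against 62.2, 56.7 and 54.8 TPM with no overlap. Since 2 of 3 poor libraries carry the KO label, the sides were also compared within each label: WT replicate 2 lay above both other WT libraries, and KO replicates 2 and 3 above KO replicate 1, in 14 of the 22, which held for 9.88% of all genes; the opposite, with the rich libraries above within both labels, held for 0 of the 22 and for 12.4% of all genes. Of the type 2 genes, 30 of 32 were higher in the rich libraries within both labels. Proliferation genes (median 0.32 over 20) and interferon-stimulated genes (0.06 over 18) had sums that overlapped between the sides.

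**Figure D4:**
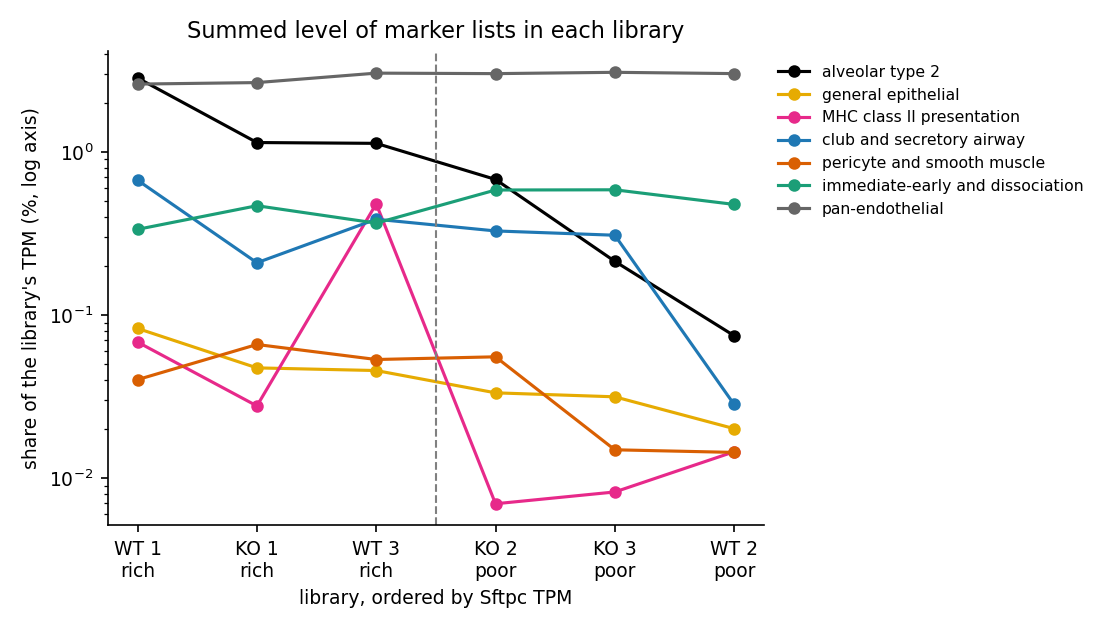
Summed TPM of 7 marker lists as a share of all TPM of the library (log axis), libraries in the order of Sftpc. The type 2 share runs from 2.84% to 0.0747%, while the pan-endothelial share stays between 2.61% and 3.08%; the MHC class II share peaks in WT replicate 3 at 0.481%, and the immediate-early share is higher in all 3 poor libraries.

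The comparison of labels, which the ranking by Sftpc did not use, was made with and without the side as a covariate. With the side, 6 of 15202 genes passed (0.0395%), 4 higher and 2 lower in the libraries labelled KO, with 1351 at an unadjusted p under 0.05. Without the side 5 passed (0.0329%), all among the 6. Dnmt3a was called in both, at a log2 difference of 2.23 (SE 0.13, edgeR adjusted p 0.00677) with the side, and its own side difference was 0.01 (SE 0.13). Per1, a repressor of the circadian clock, was the gene added: it lay at 7.499, 36.2 and 6.36 TPM in the rich libraries and at 48.6, 53.0 and 12.5 TPM in the poor ones. The libraries labelled KO were higher on each side, and within a label the poor libraries were higher; the difference was 2.11 (SE 0.12, edgeR adjusted p 0.00677) with the side and 2.29 (SE 0.24, adjusted p 0.0617) without it. Mgp, an inhibitor of calcification, and the collagen gene Col3a1 were higher under the KO label by 1.52 and 1.28 on the log2 scale, and Sema3b, a secreted semaphorin, and AI467606 were lower, at -2.07 and -3.18. Each of the 6 passed in only 1 of the 6 fits that left out a library, the one without KO replicate 2 (adjusted p 0.0093 to 0.039 there), and none passed with sex as a covariate. A test of whether the side difference itself differed between labels called 2 genes (0.0132%), Scgb1a1 and Naa50, each through the value of 1 library, WT replicate 2 and KO replicate 1, which is the only library of its label on its side.

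Type 2 genes were last compared between labels at a given Sftpc level, because the raw level of most of them differed between the sides. With log2 Sftpc as a continuous term 7 genes passed between labels (0.046% of 15202): the 6 above and Retnla, a secreted resistin-like protein on the type 2 list, made by lung epithelium and by macrophages. Retnla (mm10 chr16:48842551-48844461, plus strand) lay at 501, 19.9 and 215 TPM in the rich libraries and at 10.6, 4.18 and 8.53 TPM in the poor ones. Per 1000 TPM of Sftpc it lay at 22.6, 24.7 and 17.2 TPM in WT replicates 1, 3 and 2, and at 2.24, 2.001 and 2.65 TPM in KO replicates 1, 2 and 3. The labels did not overlap, whether a library was rich or poor, and the KO ratio was 0.108 of the WT ratio. The label difference at a given Sftpc level was -3.34 on the log2 scale (SE 0.23, edgeR adjusted p 0.0101), lower in the libraries labelled KO. It stayed between -3.73 and -3.19 when each library was left out, but the call was lost without WT replicate 1, 2 or 3 (adjusted p 0.0835, 0.116 and 0.116). With the 2 sides as covariate in place of the level it was -2.43 (SE 1.14, adjusted p 0.575), and with neither -4.47 (SE 1.26, adjusted p 0.296). Which cells the Retnla transcripts came from was not tested. Macrophage genes other than Lyz2 were at or below 11.9 TPM in every library, and Chil3 among them was found in WT replicates 1 and 3 alone.

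Of the 26 type 2 genes with a ratio to Sftpc in every library, 4 had all 3 WT ratios above all 3 KO ratios and 1 the reverse. No share over all genes stands beside these counts, because the ratio of a gene that does not follow Sftpc takes its order from Sftpc. The genes were picked for this gap, and nothing is read from their number. Besides Retnla these were Chil1, Il33 and Hc, and the reverse was Sftpb. Chil1, a chitinase-like lectin, lay at 251, 53.7 and 108 TPM against 16.3, 8.77 and 6.29 TPM; per 1000 TPM of Sftpc it lay at 11.3, 12.4 and 12.7 TPM in WT replicates 1, 3 and 2 and at 6.03, 3.07 and 5.57 TPM in KO replicates 1, 2 and 3. Its label difference at a given Sftpc level was -1.40 (SE 0.24, edgeR adjusted p 0.231) and did not pass. Hc, the complement component C5, differed less, at 0.776 of the WT ratio, and Il33, an alarmin, was set low mainly by KO replicate 2, at 0.20 TPM. Of the other surfactant genes, Sftpa1 and Sftpd overlapped between the labels: Sftpa1 differed between labels by -0.19 (SE 0.20) at a given Sftpc level, Napsa by -0.15 (SE 0.16) and Lyz1 by 0.06 (SE 0.19), none called.

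**Figure D5:**
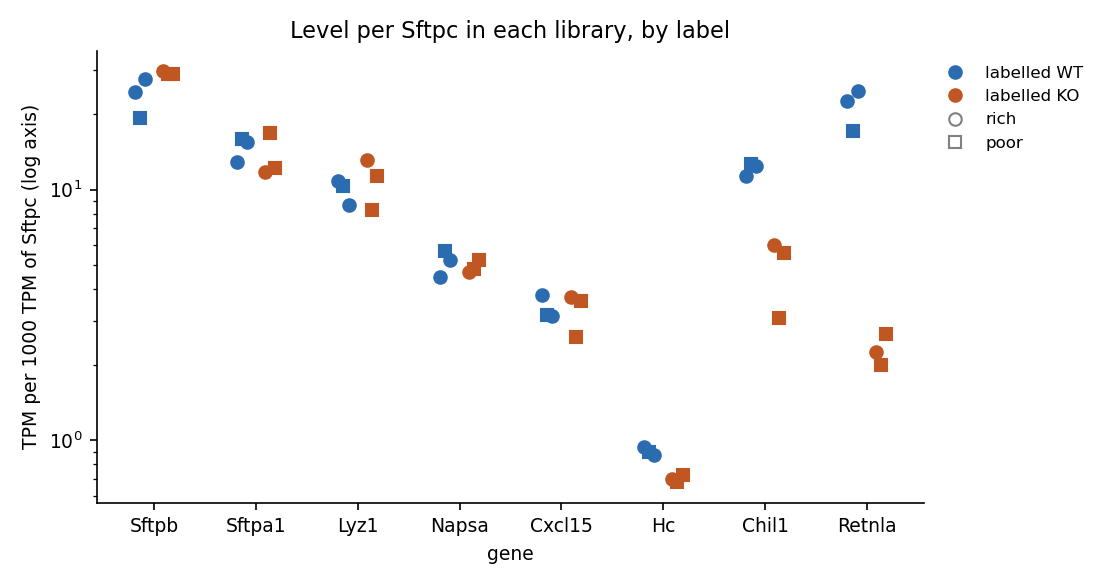
Level per 1000 TPM of Sftpc (log axis) of 8 type 2 genes in each library, WT in blue and KO in orange, circles for rich and squares for poor libraries. Retnla lies at 17.2 to 24.7 TPM in the WT and at 2.001 to 2.65 TPM in the KO libraries, and Chil1 at 11.3 to 12.7 and 3.07 to 6.03 TPM, while Napsa, Cxcl15, Lyz1 and Sftpa1 overlap between labels.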

How the data were processed

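RNA was measured in 6 libraries, 3 per label, assigned by their titles. The authors deposited estimated counts per gene, in whole numbers, and TPM values, with column totals of 875864 to 885609; the cause of this shortfall is not stated. The submitters' processing notes name kallisto and mm10; the sources used here do not give the annotation, the step from transcripts to genes or whether strand was kept. Symbols and coordinates came from GENCODE M21 (24299 of 24520 identifiers; 221 had none), promoters from RefSeq GRCm38.p6.

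Counts were fitted with edgeR 4.0.16 (quasi-likelihood test, TMM, filterByExpr by side and label, library sizes from all counts, Benjamini-Hochberg at 0.05 over all genes; limma 3.58.1, R 4.3.3) on all 6 libraries with label and side as terms. The standard error is the log2 difference divided by the square root of F. Non-overlap was read from TMM-scaled CPM, as was the ratio to Sftpc (offset 0.1). The alternatives were DESeq2 1.42.0, other scalings and filters, limma on log2(TPM + 1) and log2(TPM + 0.1), Sftpc as a continuous term, sex or replicate number as a term, and leaving out libraries. The test was tried on simulated counts. All pairs of libraries differed by more than counting noise, with a chi-square of 47.4 to 195 per degree of freedom.

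The members, the 24 lists and the tests were chosen with earlier results of these data known. Named genes were Sftpc, the leading members of each list and any member a small count rests on, the 20 genes closest to Sftpc, and the genes called between labels; type 2 and airway genes singled out for another pattern than Sftpc, and the genes named for an overlap or a label gap, were chosen after their values were seen.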

Additional observations from a re-analysis of the deposited data

Results flagged for a closer look

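The side difference was tested for unlikeness between the labels with a label by side interaction, on 2 residual degrees of freedom and with sides that Sftpc had set. It passed for 2 of 15202 genes (0.0132%), with 605 at an unadjusted p under 0.05. Scgb1a1, the club cell secretoglobin, had an interaction of -7.18 on the log2 scale (SE 0.53, edgeR adjusted p 0.0444): its counts were 19760 and 14557 in WT replicates 1 and 3 against 219 in WT replicate 2, but 4305 in KO replicate 1 against 9374 and 9553 in KO replicates 2 and 3. Naa50, the catalytic subunit of an N-terminal acetyltransferase, had one of -10.58 (SE 0.72, edgeR adjusted p 0.0444): 427 and 421 counts were estimated for WT replicates 1 and 3, 149 for WT replicate 2, and 1 count in KO replicate 1 against 782 and 668 in KO replicates 2 and 3. In each gene 1 library stands apart, WT replicate 2 in the first and KO replicate 1 in the second, and each is the only library of its label on its side, so the interaction cannot be fitted without it.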

How the results depend on the processing

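The count of genes between the sides, 0 in edgeR, was 245 with DESeq2, 62 with Sftpc as a continuous term, 1 with a sex covariate and 0 to 27 when each library was left out (27 without KO replicate 2, 3 without WT replicate 3, 2 without KO replicate 1 and 1 without WT replicate 2). Leaving out the 2 libraries nearest the divide was added after seeing the data and gave 6 by TPM (WT replicate 3 and KO replicate 2) and 152 by CPM (KO replicates 1 and 2). The 6 genes between the labels became 267 with DESeq2, 0 with limma on log2(TPM + 1) and no filter, 0 with a sex covariate, 0 to 10 when each library was left out (10 without KO replicate 2, 0 without any other), and 3 and 41, with 2 and 4 of the 6 among them, without the libraries nearest the divide by TPM and by CPM. The interaction gave 2 genes in edgeR and 56 with DESeq2; leaving out libraries was not run for it. With the replicate number as a block, the label comparison gave 0 genes and the side comparison 0. The numbers do not pair the libraries: deviations from the label means correlated at 0.311, -0.060 and -0.187 between same-numbered libraries over 12227 genes, and WT replicate 2 correlated best with KO replicate 3 (0.374).

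Of the 20 genes closest to Sftpc, 16 to 19 were again among the closest 20 when a library was left out, 15 with a mean count of at least 500 and 20 on deposited TPM. The rich side was higher throughout in 5 list sums on TPM and in 5 in TMM-scaled CPM. No value compared changed sign with a call, but values without a call did. Over the alternative fits the side difference changed sign for Pecam1 (6 of 21), Cdh5 (2 of 21), Scgb1a1 (1 of 21) and Bpifa1 (2 of 16). Between TPM and TMM-scaled CPM the rich to poor ratio of summed levels changed direction for the sex-linked, basal and neuroendocrine, and interferon-stimulated lists. Counts limit the scarce genes: Alcam, BC051019 and Sfta2 rest on 10 or 11 counts in WT replicate 2. Each label has 1 library on one side, and no fit can part that library from the label by side combination.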
